A study of Mus musculus with 5 samples.

Results

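Prlr, the gene for the prolactin receptor, was followed as 1 gene among the 6628 genes shared by all 5 single-cell libraries of mouse pancreatic islets. It was taken by its gene name in each library and described in cells grouped by their leading hormone, a grouping that does not use Prlr. The libraries were made with inDrop, a droplet method that tags polyadenylated RNA with a cell label and a molecular label (UMI), from isolated and dissociated islets of C57BL/6 mice. There was 1 library from non-pregnant females, 2 from pregnant and 2 from postpartum mice, and the non-pregnant animals are the comparison group named by the design. Age, day of pregnancy and day after birth do not appear in the sources used here. Nor do these sources say whether the libraries came from separate animals, so p-values measure only the spread between these libraries, which may be technical.

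The prolactin receptor is a class I cytokine receptor at the cell surface. It binds prolactin from the pituitary and placental lactogens during pregnancy, and signals mainly through the kinase JAK2 and the transcription factor STAT5. In rodent islets it is known for its place in the pregnancy response of the beta cell, in which beta cells divide, make serotonin and release more insulin.

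Prlr lies at chr15:10177238-10349180 on the plus strand of GRCm38 in the GENCODE M21 annotation, with 12 annotated transcripts, 7 of them protein coding. All 7 coding transcripts end at different positions, and some encode a long and others a short receptor. The files give 1 value per gene, so these forms cannot be told apart here. A predicted gene, Gm21973, overlaps the 3′ part of Prlr on the same strand at chr15:10325380-10373749, and how shared reads were assigned is not given in the sources used here. RefSeq promoter entries for GRCm38.p6 list 3 start sites for Prlr, at positions 10177238, 10223906 and 10293651 of chromosome 15.

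A STAT5-type site, spelled TTCNNNGAA and identical on both strands, was searched for in the 250 bases before and 50 bases after each RefSeq start. It was held by 8.3% of all 32851 promoter windows, and by 9.55% of genes when any of a gene's windows counted. Among Prlr's 3 windows, 1 held it, the window of the second start, 110 bases upstream. The site is shown with those of 3 pathway genes whose levels are described further on, Cish, Socs3 and Ivd. These 4 genes were chosen because they were called higher in postpartum cells when pregnant library 2 was left out, and have a promoter entry. Each of the 4 holds the site in at least 1 of its windows. Ccnd2, a pathway gene called in the same fit, has no entry. Each line gives reference sequence read 5′ to 3′ in the gene's direction, with the site in capitals. A match is a description of letters, not evidence that a factor binds there.
Prlr, second start, chr15:10223786-10223814, plus strand: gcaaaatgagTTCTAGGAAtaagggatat
Cish, chr9:107296655-107296682, plus strand: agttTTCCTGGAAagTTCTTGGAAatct
Socs3, chr11:117969502-117969530, minus strand: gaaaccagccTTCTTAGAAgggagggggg
Ivd, chr2:118861896-118861924, plus strand: ttcggctggcTTCCGAGAAcgattggcta
Cish carried 2 adjacent sites that begin at its start, Socs3 carried 1 site 154 bases upstream and Ivd 1 site 88 bases upstream.

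After 44 called doublets were removed, 4643 cells remained. Median UMIs per deposited cell ran from 89 in pregnant 2 to 2553 in the non-pregnant library. Pregnant 2 stood apart from the others before any gene was tested: it held 164 deposited cells and 16306 UMIs, against 557 to 1993 cells and 148522 to 2561319 UMIs elsewhere, and 25 of its cells were called doublets. Results that rest on it are therefore given with and without it. Cells are numbered in the files and carry no barcode sequence, so barcodes shared between libraries could not be counted, and 0 whole-cell profiles were shared. Cells were classed by the largest of Ins1 + Ins2, Gcg, Sst and Ppy. A list of 12 measured beta-cell markers, hormones aside, summed to 6444 to 21406 CPM in insulin-led cells and 0 to 2967 CPM in Gcg-led cells. For the 9 measured alpha-cell markers the ranges were 8228 to 17939 CPM and 32642 to 95942 CPM. The 4 measured somatostatin-cell markers of 6 summed to 542 CPM in Sst-led against 1386 CPM in Gcg-led cells of postpartum 1. The 2 measured polypeptide-cell markers of 5 summed to 244 CPM in Ppy-led against 622 CPM in Sst-led cells of the non-pregnant library, and to 0 in Ppy-led cells of pregnant 1 and postpartum 1. These 2 lists thus did not mark their own class in every library, and the Sst-led and Ppy-led classes are named by their hormone alone. CPM here means UMIs of a gene per 1000000 UMIs of a cell, counted over the 6628 shared genes after the 7 measured hormone genes are taken out. This total is called the non-hormone UMIs.

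Nearly all Prlr RNA was in insulin-led cells, the class that holds the beta cells. They carried 3212 of the 3247 Prlr UMIs, or 98.9%. The share was 98.6% in the non-pregnant library, 99.1% in pregnant 1, 100% of 6 UMIs in pregnant 2, 98.4% in postpartum 1 and 99.2% in postpartum 2. Insulin-led cells held between 71.6% and 89.6% of the non-hormone UMIs of a library. Outside pregnant 2, Prlr thus lay further towards this class than RNA in general did. In pregnant 2 the 6 UMIs lay in 2 cells, too few to tell their share from the 76.6% of its non-hormone UMIs.

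**Figure D1:**
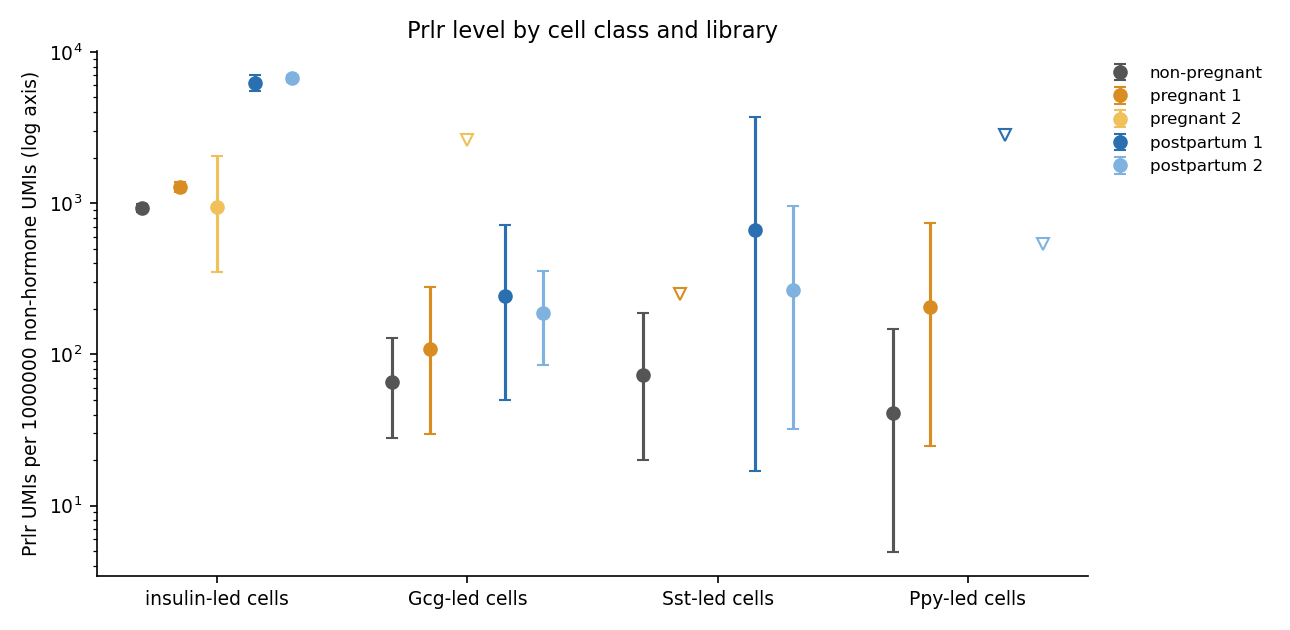
Prlr level (Prlr UMIs per 1000000 non-hormone UMIs, pooled over the cells of a class, log axis) in the insulin-, Gcg-, Sst- and Ppy-led cells of each library with at least 10 such cells; circles are levels, bars are 95% Poisson intervals, and open triangles mark the level that 3 UMIs would give where none was counted. The postpartum libraries sit at 6240 and 6672 in insulin-led cells and the other 3 libraries between 933 and 1276, while the highest level counted in another class is 664.

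Among insulin-led cells, the mean Prlr level was 981 CPM in the non-pregnant library (1005 UMIs in 674 cells). It was 1226 CPM in pregnant 1 (670 UMIs in 1772 cells) and 1536 CPM in pregnant 2 (6 UMIs in 110 cells). In postpartum 1 the mean was 6548 CPM (242 UMIs in 396 cells) and in postpartum 2 it was 6604 CPM (1289 UMIs in 894 cells). Both postpartum libraries lay above all 3 others, with no overlap, and lay close to each other. Pooling the UMIs over cells gave 933 CPM (95% Poisson interval 876 to 992) for non-pregnant, 1276 CPM (1181 to 1376) for pregnant 1 and 948 CPM (348 to 2064) for pregnant 2. The same pooling gave 6240 CPM (5479 to 7078) for postpartum 1 and 6672 CPM (6312 to 7046) for postpartum 2. The intervals cover counting error only. In the order of pooled levels, pregnant 2 could not be separated from the non-pregnant library or from pregnant 1, and the postpartum pair differed by a ratio of 1.07 (0.931 to 1.23). In these mixed-cell means, fewer Prlr-bearing cells and less Prlr RNA per cell cannot be told apart by the level alone.

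The postpartum level was 4.89 times (4.205 to 5.67) that of pregnant 1 in postpartum 1 and 5.23 times (4.76 to 5.75) in postpartum 2. Against the non-pregnant library the ratios were 6.69 (5.79 to 7.70) and 7.15 (6.58 to 7.77). The total behind these levels leaves out hormone UMIs, whose share differed between libraries. Ins2 alone held 19.2% of the UMIs of insulin-led cells in non-pregnant and 41.8% in postpartum 2. Pregnant 1 stood at 1.37 times (1.24 to 1.51) the non-pregnant level, and pregnant 2 at 1.02 times (0.372 to 2.22). The shared non-hormone genes were ranked by number of UMIs, a count of captured molecules that is not scaled to transcript length. Prlr was the 8th and 7th most counted of them in insulin-led cells of the postpartum libraries. It ranked 126th in the non-pregnant library, 70th in pregnant 1 and 300th in pregnant 2. Ribosomal RNA was left out of this ranking and held 0.946% and 1.67% of the UMIs in postpartum 1 and postpartum 2.

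The design compares pregnant and postpartum islets with non-pregnant ones. Differences are of log2(mean CPM + 100), which understates the change of low genes, and were tested with limma across all genes that averaged 100 CPM or more over the libraries. Postpartum minus pregnant, Prlr differed by 2.18 ± 0.63 (SE, 2 libraries against 2; limma adjusted p = 0.208), and 0.137% of the 2194 genes tested were called at an adjusted p under 0.05. It did not pass in this fit, in which the median gene differed by 0.57 in the same direction. limma took this SE wholly from the trend of spread across all genes, so it does not measure the spread of Prlr itself between libraries. The same holds for each SE given in this paragraph and the next. With pregnant 2 left out, the difference was 2.33 ± 0.28 (limma adjusted p = 2.79e-13), 2.58% of genes were called and the median gene moved by -0.02. That fit takes its spread from the 2 postpartum libraries alone and assumes that the lone pregnant and non-pregnant libraries vary like them. Its small p thus rests on 1 residual degree of freedom per gene, pooled wholly across genes. The difference was also called without the non-pregnant library (2.18 ± 0.57, limma adjusted p = 0.045). It was called as well without pregnant 1 (2.03), where pregnant 2 is the only pregnant library. In that fit the median gene differed by 1.35 in the same direction and most genes were called, so the call is not particular to Prlr. The Prlr difference was above 0 in each of these fits, and its call depended on which libraries entered.

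Postpartum minus non-pregnant, Prlr differed by 2.63 ± 0.77 (2 libraries against 1; limma adjusted p = 0.170), with 0.319% of genes called. Without pregnant 2, which then no longer enters the shared spread, the same difference had an SE of 0.28 (limma adjusted p = 1.35e-17) and 5.9% of genes were called. Pregnant minus non-pregnant, the difference was 0.45 ± 0.77 (limma adjusted p = 0.891, 0.182% of genes called). Without pregnant 2 it was 0.30 ± 0.33 (limma adjusted p = 0.999, 2.09% called). With hormone UMIs kept in the total, postpartum minus non-pregnant was 1.84 rather than 2.63. Postpartum minus pregnant was then 1.74 rather than 2.18. By levels without hormone UMIs, Prlr thus stood higher in each postpartum library than in each of the other 3, and no difference between pregnant and non-pregnant cells passed. The non-pregnant values were deposited on another scale and with more features than the rest. Some very abundant genes differed from it by large amounts in both directions and in both states: Ubb, a polyubiquitin gene, by 4.16 in pregnant and 5.29 in postpartum cells, and Tpt1, a translation-linked gene, by -5.40 and -5.37. What part this plays in the Prlr difference from the non-pregnant library was not tested. The non-pregnant library enters the comparison of postpartum with pregnant libraries only through the level filter and the trend of the shared spread.

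**Figure D2:**
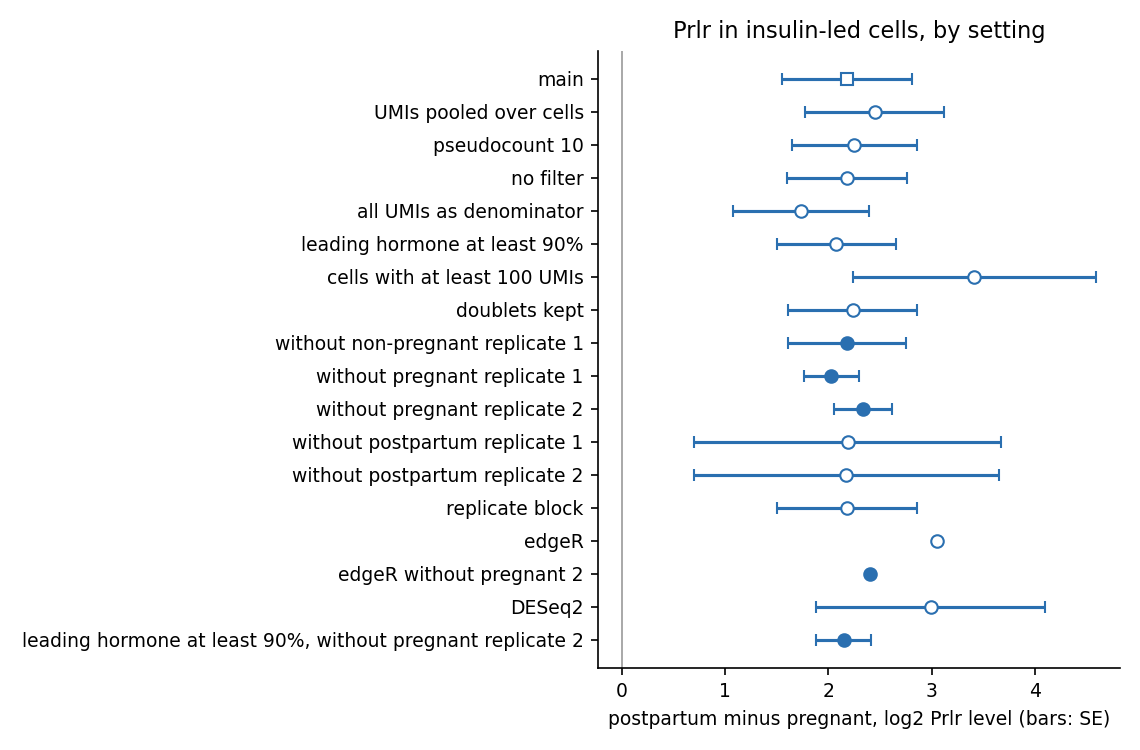
Difference in Prlr between postpartum and pregnant insulin-led cells (log2 scale, x axis; bars are SE, absent where edgeR gives none) for the reported fit (square) and each alternative (circles); filled symbols have an adjusted p under 0.05. Every value lies above 0, from 1.74 to 3.41, and 5 of the 17 alternatives pass. Among those that pass, edgeR without pregnant 2 and the 90% limit without pregnant 2 were chosen after seeing the data.

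Once non-hormone depth was made equal, a larger share of postpartum cells had a Prlr UMI. At such low depth this share largely follows the mean level. It therefore cannot tell more Prlr-bearing cells from more Prlr RNA per cell. Without any correction, 60.8% of non-pregnant insulin-led cells had at least 1 Prlr UMI (exact binomial 95% interval 57.0 to 64.5), against 24.2% (22.2 to 26.3) in pregnant 1 and 1.82% (0.221 to 6.41) in pregnant 2. In postpartum 1 the share was 41.2% and in postpartum 2 it was 60.6%. These raw shares follow depth as well as level, since median non-hormone UMIs per insulin-led cell were 1315.5, 245, 52, 89 and 181 in the same order. Thinned to 50 non-hormone UMIs per cell, the shares were 4.70% in non-pregnant, 5.73% in pregnant 1 and 0.606% in pregnant 2, where 47 of 110 cells were too shallow to enter. The thinned shares were 25.7% in postpartum 1, with 39 cells left out, and 26.4% in postpartum 2, with 7 left out. At equal depth the 2 postpartum libraries were thus alike and stood above the other 3, in the same order as the CPM for all but pregnant 2, whose 6 UMIs lay in 2 cells, 5 of them in 1 cell. Thinned to 100 UMIs, the share was 9.02% in non-pregnant, 10.7% in pregnant 1 (41 cells left out), 5.45% in pregnant 2 (96 left out), 42.7% in postpartum 1 (241 left out) and 44.4% in postpartum 2 (133 left out).

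**Figure D3:**
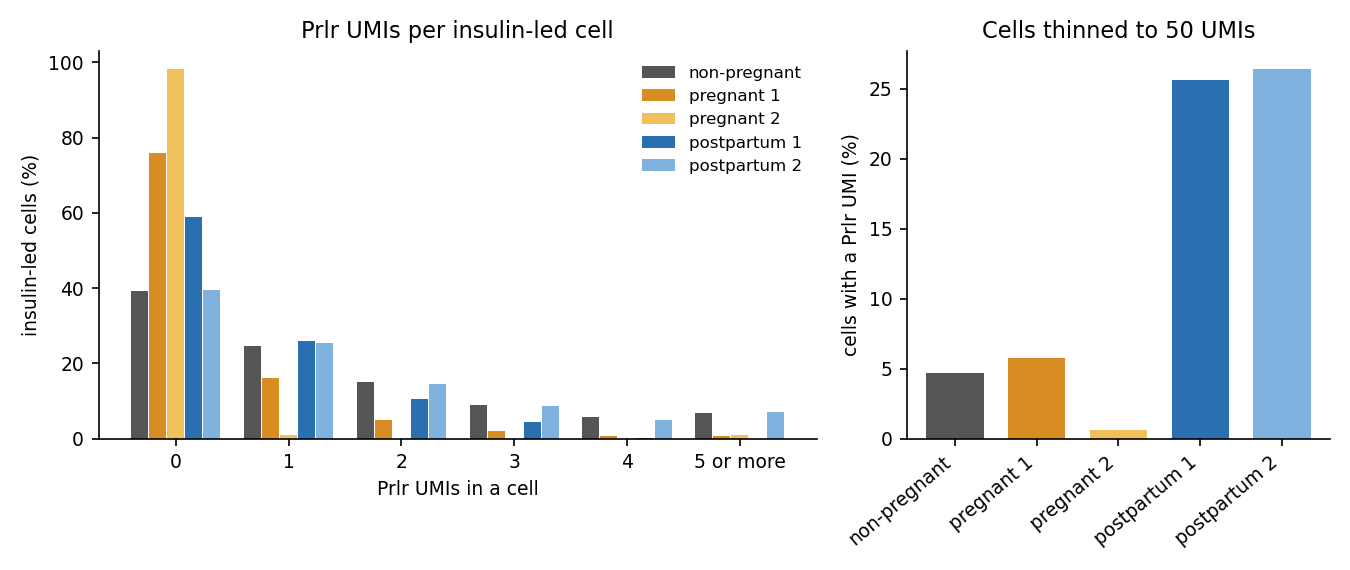
Left, share of insulin-led cells (%) by number of Prlr UMIs, for each library; right, share with a Prlr UMI after each cell is thinned to 50 non-hormone UMIs. Thinned shares are 25.7% and 26.4% in the postpartum libraries and 0.606% to 5.73% in the others.

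Insulin-led cells with no Prlr UMI were frequent everywhere: 39.2% in non-pregnant, 75.8% in pregnant 1, 58.8% in postpartum 1 and 39.4% in postpartum 2. If every cell of a library carried Prlr at the same level, sampling alone would leave 29.98%, 70.2%, 56.3% and 31.1% of cells at 0. The largest number in 1 cell was 16 in non-pregnant, 8 in pregnant 1, 4 in postpartum 1 and 13 in postpartum 2. The extra spread between cells beyond sampling, as the squared coefficient of variation, was 0.538 in non-pregnant and 1.31 in pregnant 1, against medians of 0.478 and 0.972 for genes within 2-fold of the Prlr level. In postpartum 1 it was 0.185 and in postpartum 2 it was 0.269, against medians of 0.380 and 0.441. More spread than Prlr was shown by 138 of 320 such genes in non-pregnant and 75 of 203 in pregnant 1. In postpartum 1 it was 15 of 15 and in postpartum 2 10 of 11. Pregnant 2, with 6 Prlr UMIs, gave 47.0 against a median of 65.5. Cell-to-cell spread of Prlr was thus somewhat above the median of similarly counted genes in the first pair and below it in the other libraries. The compared genes differ in number and level between libraries, so this is a description across genes with no test.

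The other islet hormone classes held little Prlr. Gcg-led cells, the class of the glucagon-making alpha cells, had mean levels of 68.5 CPM (8 UMIs) in non-pregnant, 96.8 CPM (4 UMIs) in pregnant 1, 0 in pregnant 2, 158 CPM (3 UMIs) in postpartum 1 and 207 CPM (9 UMIs) in postpartum 2. Each of these lay below every insulin-led level. The share of Gcg-led cells with a Prlr UMI was 7.45%, 2.84%, 0%, 1.67% and 3.93% in library order, at median non-hormone UMIs of 1253, 240, 60, 97 and 248. With 17 such cells in pregnant 2, its count of 0 leaves room, at 3 counts, for shares as high as 17.6%. Pooled insulin-led levels were 14.3 times (7.23 to 33.2) the Gcg-led level in non-pregnant, 11.7 times (4.55 to 43.1) in pregnant 1, 25.6 times (8.67 to 125) in postpartum 1 and 35.8 times (18.8 to 78.5) in postpartum 2.

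Sst-led cells, which make somatostatin, held 4 Prlr UMIs in non-pregnant, 0 in pregnant 1, 1 in postpartum 1 and 2 in postpartum 2. Ppy-led cells, which make pancreatic polypeptide, held 2, 2, 0 and 0. No level can be ordered among these minor classes at such counts. Over 18 library and class levels with at least 10 cells, with the library as a block, insulin-led cells exceeded Gcg-led cells by 3.72 ± 0.60 (log2 difference and SE; limma adjusted p = 0.000197), and 0.675% of the 2369 genes tested were called. The difference from Sst-led cells was 3.53 ± 0.65 (limma adjusted p = 0.00241, 1.18% called) and that from Ppy-led cells 4.18 ± 0.65 (limma adjusted p = 0.000207, 1.01% called). Among all genes tested, Prlr had the 2nd largest positive difference against Gcg-led, the 4th against Sst-led and the 2nd against Ppy-led cells. Without pregnant 2 the values were 3.64, 3.49 and 4.14, all called, with 1.06%, 1.47% and 1.75% of genes called. The Sst-led difference no longer passed without postpartum 2 (3.32 ± 0.77, limma adjusted p = 0.0764).

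The few Prlr UMIs of Gcg-led cells lay mostly in cells with a mixed hormone content in 3 libraries. Of those UMIs, 7 of 8 in non-pregnant, 2 of 4 in pregnant 1, 3 of 3 in postpartum 1 and 7 of 9 in postpartum 2 were in Gcg-led cells whose leading hormone held under 90% of their insulin, Gcg, Sst and Ppy UMIs. Such cells held 35.1%, 44.5%, 19.6% and 20.4% of the non-hormone UMIs of Gcg-led cells in the same order, so the share of pregnant 1 lay near that of its RNA in general. Where Gcg held at least 90%, the pooled Prlr level was 12.6 CPM in non-pregnant (1 UMI), 98.3 CPM in pregnant 1 (2 UMIs), 0 in postpartum 1 and 52.0 CPM in postpartum 2 (2 UMIs). Insulin-led cells held to the same limit stood at 91.6 times (16.4 to 3623) that level in non-pregnant, 15.8 times (4.35 to 131) in pregnant 1 and 135 times (37.2 to 1113) in postpartum 2. In postpartum 1, where the Gcg-led count was 0, they stood at 21.04 times the level that 3 UMIs would give. The interval of the postpartum 1 ratio began at 17.0.

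Whether the postpartum difference itself differed between classes was tested on the insulin-led minus Gcg-led difference of each library. The postpartum difference was larger in insulin-led cells by 1.18 ± 1.14 (limma adjusted p = 0.770), with 0% of 2089 genes called by limma and 75 genes at an unadjusted p under 0.05. Without pregnant 2 it was 1.81 ± 0.53 (limma adjusted p = 0.138, 0.0842% called). Restricted as well to cells whose leading hormone held at least 90%, an alternative chosen after seeing the data, it was 2.86 ± 0.48 (limma adjusted p = 0.000577). In Gcg-led cells alone, the pooled level of postpartum 1 was 2.23 times (0.327 to 13.2) and that of postpartum 2 1.71 times (0.477 to 7.59) that of pregnant 1, and both intervals include no change.

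Within the insulin-led class, the pooled Prlr level tended to be higher where insulin held a larger share. The same 90% limit was met by 55.5% of insulin-led cells in non-pregnant, 64.4% in pregnant 1, 95.5% in pregnant 2, 93.9% in postpartum 1 and 89.8% in postpartum 2. Cells that met it had 1.82 times (1.59 to 2.10) the Prlr level of cells that did not in non-pregnant, 2.01 times (1.67 to 2.44) in pregnant 1 and 1.89 times (1.49 to 2.43) in postpartum 2. The ratio in postpartum 1, from 11 UMIs in the cells under the limit, was 1.46 (0.801 to 2.96). Since the states differ in how many cells meet the limit, it bears on the comparison of states. Among cells that met it the pooled levels were 1150 CPM in non-pregnant, 1551 CPM in pregnant 1, 1012 CPM in pregnant 2, 6370 CPM in postpartum 1 and 7008 CPM in postpartum 2, in which the postpartum pair again stood apart.

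Splitting insulin-led cells into terciles by the share of their UMIs that came from Ins1 and Ins2 gave the same picture on a finer scale. In non-pregnant cells Prlr was at 724 CPM (640 to 816) in the lowest tercile, 893 CPM in the middle and 1228 CPM (1108 to 1357) in the highest. Pregnant 1 gave 905 CPM (776 to 1049), 1107 CPM and 1897 CPM (1690 to 2121). Postpartum 2 gave 5101 CPM (4569 to 5679), 7045 CPM and 8011 CPM (7293 to 8780), while postpartum 1 gave 4956 CPM (3817 to 6329), 6962 CPM and 6795 CPM (5428 to 8402). The lowest and highest terciles had separate intervals in all of these libraries but postpartum 1. Such intervals cover counting error only and leave out the extra spread between cells. The insulin share and the Prlr level both draw on the non-hormone UMIs of a cell, and other genes were not split in this way. The insulin share differed between libraries too, with medians in the middle tercile of 28.8% in non-pregnant, 35.1% in pregnant 1, 51.3% in postpartum 1 and 61.8% in postpartum 2. What part the insulin share plays in the Prlr differences between libraries was not tested. A pair of terciles with a like share is given as a description only. At a median share of 44.2% the highest tercile of pregnant 1 had 1897 CPM, and at 41.7% the lowest tercile of postpartum 1 had 4956 CPM. Insulin share was a continuous measure, and these terciles are ranges, not cell types.

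**Figure D4:**
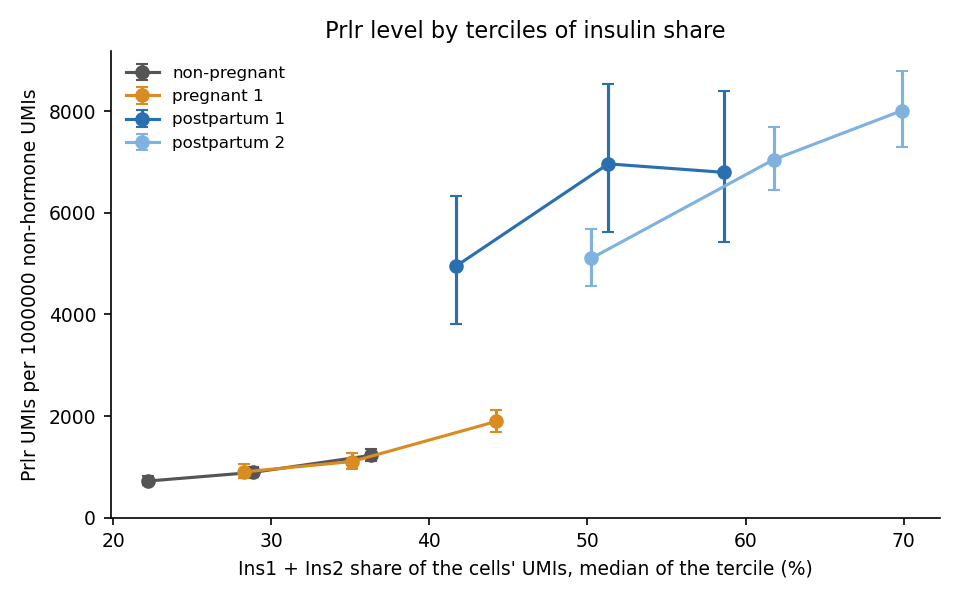
Prlr level (UMIs per 1000000 non-hormone UMIs, y axis) in terciles of insulin-led cells, placed at the median Ins1 + Ins2 share of UMIs of each tercile (%, x axis), for the 4 libraries other than pregnant 2; bars are 95% Poisson intervals and lines join the terciles of a library. The terciles of pregnant 1 end at 1897 near a share of 44.2%, and those of postpartum 1 begin at 4956 near 41.7%.

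Terciles by total UMIs per cell moved Prlr less evenly. In non-pregnant cells the level was 1053 CPM in the shallowest tercile and 902 CPM in the deepest, and in pregnant 1 it was 1278 CPM and 1364 CPM. In postpartum 1 it was 5796 CPM and 6456 CPM, and in postpartum 2 it was 4638 CPM and 7226 CPM. Depth within a library was thus associated with Prlr most in postpartum 2, and each postpartum tercile lay above each tercile of the non-pregnant library and pregnant 1.

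Markers of other cell types were present in insulin-led cells and differed between libraries. The 11 measured acinar genes of 12 summed to 967 CPM in non-pregnant, 35.1 CPM in pregnant 1, 5172 CPM in pregnant 2, 1811 CPM in postpartum 1 and 1877 CPM in postpartum 2. The 8 measured macrophage genes of 12 summed to 692 to 818 CPM in non-pregnant, pregnant 1 and postpartum 1, to 1962 CPM in postpartum 2 and to 0 in pregnant 2. The 9 measured endothelial genes of 10 summed to 573 to 1245 CPM outside pregnant 2, where all 9 were at 0. The 5 measured ductal genes of 8 summed to 1438, 1503, 1324, 593 and 1012 CPM in library order. Of 9 mesenchymal genes only Rgs5, a pericyte gene, was measured, at 26.2, 18.6, 0, 202 and 270 CPM, with both postpartum libraries highest, as for Prlr. Their part in the Prlr differences was not tested.

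The genes whose cell-to-cell pattern was most like that of Prlr included secretory genes of the beta cell and a cyclin, all with small correlations. Across single insulin-led cells of 1 library, on residuals adjusted for depth, Ccnd2 had the highest mean Pearson r of 243 genes, at 0.127. Ccnd2 encodes cyclin D2, a cell-cycle regulator needed for beta-cell growth. Its r was 0.108 over 674 non-pregnant cells, 0.138 over 1772 cells of pregnant 1, 0.132 over 396 cells of postpartum 1 and 0.131 over 894 cells of postpartum 2. All 4 values were positive and close, while the median gene had a mean r of 0.0080. Next came Pcsk2, a prohormone convertase, with a mean r of 0.088, G6pc2, a glucose-6-phosphatase of islets, with 0.075, and Ero1lb, an oxidoreductase that helps fold proinsulin, with 0.071. Prss53, Pcsk1, Chga and Eprs followed, between 0.061 and 0.070, and several of the genes after Pcsk2 had an r near or below 0 in a library. G6pc2 was at -0.0029 in postpartum 1 and 0.024 in pregnant 1, Ero1lb at -0.022 in pregnant 1 and Chga at -0.029 in postpartum 1. These cells share library, depth and free RNA, the counts are sparse, and values this small describe an ordering and no finding.

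Prlr itself went with the insulin share of a cell at r of 0.197, 0.137, 0.129 and 0.258 in non-pregnant, pregnant 1, postpartum 1 and postpartum 2. At the other end of the list, Tmsb4x, an actin-binding peptide gene, had the lowest mean r at -0.080.

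Over the 18 library and class levels, the genes most like Prlr among 2368 were Ero1lb (r = 0.893), G6pc2 (0.838), Enpp2 (0.829), Ucn3 (0.828) and Mafa (0.813). Ucn3 is a beta-cell maturity marker, Mafa an insulin-gene transcription factor and Enpp2 the enzyme autotaxin. Such values are set largely by the contrast of insulin-led with other cells, and points of 1 library share its depth. Of these genes, Enpp2 most resembled Prlr across states, at 362 CPM in non-pregnant, 587 CPM in pregnant 1, 1466 CPM in pregnant 2, 2391 CPM in postpartum 1 and 2622 CPM in postpartum 2 insulin-led cells. For Mafa the non-pregnant level was 1.42 CPM, against 1137 to 1784 CPM in the other 4, so the non-pregnant library stands apart for this gene.

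The prolactin pathway was followed with lists of ligands, related receptors, transducers, inhibitors and islet targets, counted in full. None of the 9 listed ligands was measured. Of 19 other class I and II cytokine receptors, 11 were in the files and 2 passed the level filter, with or without pregnant 2, and 0 were called. Only Ghr, the growth hormone receptor, passed the filter in both fits. In insulin-led cells Ghr stood at 266 CPM in non-pregnant, 226 CPM in pregnant 1, 0 in pregnant 2, 113 CPM in postpartum 1 and 160 CPM in postpartum 2. Its levels did not follow those of Prlr. Its postpartum minus pregnant difference was 0.38 ± 1.00 (limma adjusted p = 0.882), and without pregnant 2 it turned to -0.47 ± 0.45 (limma adjusted p = 0.880).

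Among 28 signal transducers, 22 were in the files and 10 were tested. By limma 0 were called postpartum minus pregnant, with a median difference of 0.36 against 0.57 for all genes, and 0 without pregnant 2, where the median was 0.13 against -0.02. Jak2, the kinase bound to the receptor, fell below the level filter at 39, 15, 0, 0 and 3 UMIs in library order. Stat5b, a STAT5 gene, did so at 63, 72, 0, 1 and 16 UMIs. Jak1, a related kinase, stood at 358, 270, 0, 565 and 562 CPM, and its difference was 1.79 ± 1.24 (limma adjusted p = 0.838), or 0.84 ± 0.48 without pregnant 2 (limma adjusted p = 0.577). The transducers thus showed no call either way at these depths.

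Of 18 inhibitors, 14 were in the files. With all libraries 6 were tested and 0 called by limma (unadjusted p under 0.05 for 78 of all 2194 genes; 0 genes called by edgeR and 0 by DESeq2). Their median difference was 0.71. Without pregnant 2, 7 were tested and 2 were called higher, at a background of 2.58% of genes. These were Cish and Socs3, which encode feedback inhibitors that cytokine receptors induce through STAT factors. Cish stood at 77.1 CPM in non-pregnant (87 UMIs), 50.7 CPM in pregnant 1 (22 UMIs), 551 CPM in pregnant 2 (2 UMIs), 321 CPM in postpartum 1 (14 UMIs) and 480 CPM in postpartum 2 (72 UMIs). Postpartum cells lay above non-pregnant cells and pregnant 1 and below pregnant 2, whose level is 2 UMIs. The difference from pregnant 1 was 1.71 ± 0.45 (limma adjusted p = 0.00927), and it was 0.66 ± 1.20 with both pregnant libraries (limma adjusted p = 0.845).

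Socs3 stood at 109 CPM in non-pregnant, 15.2 CPM in pregnant 1 (12 UMIs), 0 in pregnant 2, 326 CPM in postpartum 1 (11 UMIs) and 398 CPM in postpartum 2 (86 UMIs). Here the 2 postpartum libraries were the highest of the 5. The difference was 2.00 ± 0.45 without pregnant 2 (limma adjusted p = 0.000882) and 2.10 ± 0.97 with it (limma adjusted p = 0.838). Socs2, a further feedback inhibitor, had 195, 182, 0, 786 and 438 CPM in library order. Its difference passed neither with all libraries (2.04 ± 1.19, limma adjusted p = 0.838) nor without pregnant 2 (1.29 ± 0.48, limma adjusted p = 0.181), though both postpartum libraries were above all others.

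Of 30 listed islet target genes of lactogens, 19 were in the files, and 10 were tested with all libraries and 8 without pregnant 2. With all libraries 0 were called, and 8 of 10 were above 0 with a median of 1.34 against 0.57 for all genes. Without pregnant 2, 7 of 8 were above 0 and 2 were called higher at the background of 2.58% of genes, Ivd and Ccnd2, with a median of 0.75 against -0.02. Ivd, a mitochondrial enzyme of leucine breakdown, stood at 90.1 CPM in non-pregnant, 89.7 CPM in pregnant 1, 0 in pregnant 2, 728 CPM in postpartum 1 and 959 CPM in postpartum 2. Its difference was 2.30 ± 0.48 (limma adjusted p = 0.000203) without pregnant 2 and 2.77 ± 1.18 (limma adjusted p = 0.838) with it. Ccnd2 stood at 2298, 1670, 932, 3944 and 3291 CPM, with both postpartum libraries highest, and differed by 1.06 ± 0.29 (limma adjusted p = 0.0116) without pregnant 2 and 1.45 ± 0.68 (limma adjusted p = 0.838) with it. On the libraries without pregnant 2, the Ccnd2 call was lost with edgeR (1.13). It was lost as well in cells whose leading hormone held at least 90% (0.79). With all libraries and all UMIs as the denominator, the Ccnd2 difference was 0.60.

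Against the non-pregnant library, with pregnant 2 left out, 1 target was called higher in postpartum cells, Ivd, and 1 lower, Wipi1, at a background of 5.9%. Wipi1, an autophagy gene, stood at 507, 20.4, 0, 0 and 37.7 CPM in library order and differed by -2.37 ± 0.59 (limma adjusted p = 0.00198). In pregnant cells 2 targets were called lower at a background of 2.09%, Wipi1 (-2.33 ± 0.68, limma adjusted p = 0.0328) and Ccnd1, the gene of cyclin D1 (-1.81 ± 0.55, limma adjusted p = 0.0462). With all libraries 0 targets were called in either comparison by limma. Wipi1 and Ccnd1 were each highest in the non-pregnant library, on which these calls rest.

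Tph1, the enzyme that starts serotonin synthesis in islets of pregnancy, had 11, 6, 6, 4 and 37 UMIs in library order. Its level was 9.84, 15.3, 992, 106 and 154 CPM, highest in pregnant 2, and its postpartum minus pregnant difference was -0.63 ± 1.02 (limma adjusted p = 0.842). Without pregnant 2 it fell below the level filter. Ddc, the next enzyme of that pathway, stood at 702, 1027, 96.7, 1138 and 1518 CPM and its difference was 1.59 ± 1.20 (limma adjusted p = 0.838), or 0.33 ± 0.42 without pregnant 2 (limma adjusted p = 0.936). The lists were drawn up with earlier results of these data known, so their direction is not independent support.

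**Figure D5:**
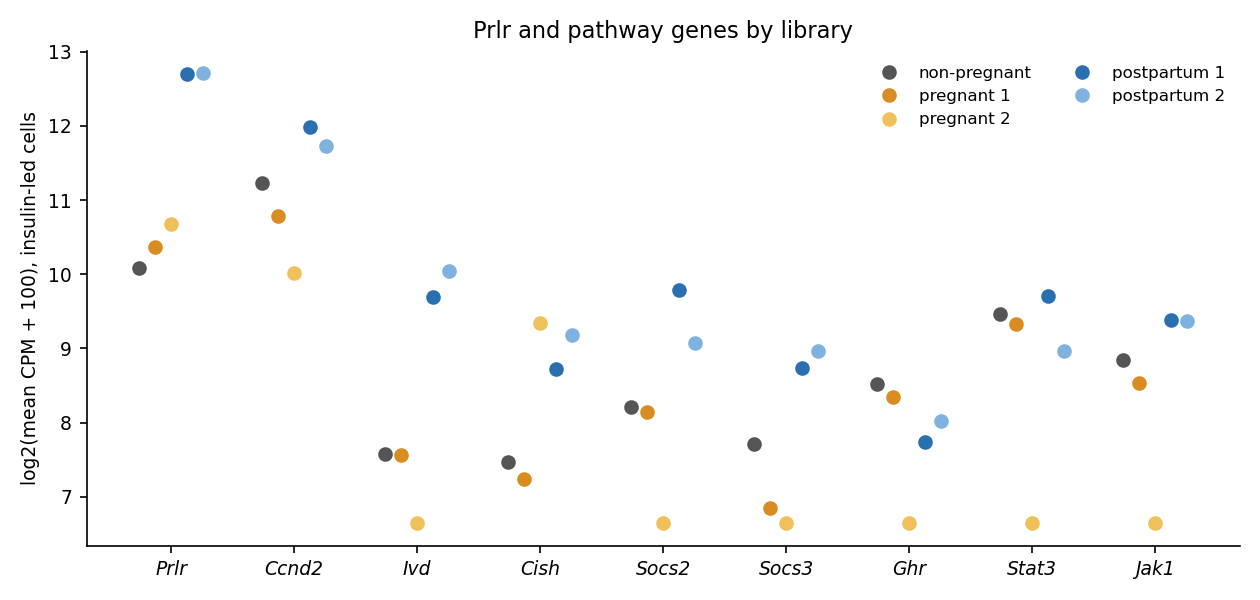
Level (log2 of mean CPM + 100, y axis) of Prlr and 8 pathway genes in insulin-led cells of each library (points); points at the bottom are genes with no UMI in pregnant 2. Both postpartum libraries are the highest for Prlr, Ccnd2, Ivd, Socs2, Socs3 and Jak1, and not for Cish, Ghr or Stat3.

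Of the 5 pathway genes called higher without pregnant 2, Prlr included, 4 had a RefSeq promoter entry and all 4 held TTCNNNGAA in at least 1 window. Among 23 genes tested and not called, 16 had an entry and 2 held it, Wipi1 and Akt2. These counts come from few genes, on lists drawn up with earlier results of these data known, and any window of a gene counted. They are given as a description, with no test.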

How the data were processed

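Single-cell inDrop libraries of mouse islets (1 non-pregnant, 2 pregnant, 2 postpartum) were used. The authors deposited the non-pregnant library as a linear signal, in which every cell sums to the same total over 40930 features, and the other 4 as log2(CPM + 1) values over 6695 features. The submitters' processing notes name Partek 8.0 and Bowtie 1.1.1 with GRCm38 (mm10). No source used here gives the filters or the counting of shared reads. Within a cell, the deposited log2 and signal values were whole multiples of 1 UMI: 100% came out whole within 0.1, so counts were recovered for all cells. Genes were joined by symbol (6543) or synonym (85), and 67 of the 6695 features were left out, ribosomal RNA among them. Scrublet (scanpy 1.11.5) doublets were removed (44 of 4687 cells). CPM was recomputed over the shared genes without the 7 hormone genes. limma 3.58.1 was fitted on log2(mean CPM + 100), trended, with Benjamini-Hochberg adjustment over all genes tested. edgeR 4.0.16 and DESeq2 1.42.0 on recovered counts were alternatives. On these counts edgeR called 0 genes postpartum minus pregnant with all libraries, and this did not hold without pregnant 2. Named genes followed the lists and the likeness rules (8 genes across cells, 5 across levels). The gene and its lists were chosen with earlier results of these data known. Fits were tested on simulated data. Libraries held 16306 to 2561319 UMIs, which sets the precision of every level. A count of 0 allows up to 3 counts, at a confidence level of 95%.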

Additional observations from a re-analysis of the deposited data

How the results depend on the processing

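The Prlr differences between insulin-led and Gcg-led or Ppy-led cells kept their direction and their call under all 14 alternatives each, from 2.98 to 4.94 and from 3.26 to 6.43. The insulin-led minus Sst-led difference stayed above 0 but was not called in 3 of 14: with a leading hormone of at least 90% (4.19), the same without pregnant 2 (4.23) and without postpartum 2 (3.32). Leaving out 1 library at a time, it ran from 3.32 to 3.79. Postpartum minus pregnant was above 0 in all 17 alternatives, and lowest with all UMIs, hormones included, as the denominator (1.74). It was called in 5, at 2.41 with edgeR without pregnant 2, at 2.15 with a leading hormone of at least 90% without pregnant 2, and in 3 of the fits that leave out 1 library (the non-pregnant one, pregnant 1 or pregnant 2), the values without each library running from 2.03 to 2.33. Postpartum minus non-pregnant was called in 4 of 15, at 2.89 with edgeR without pregnant 2, at 2.35 with the 90% limit without pregnant 2, and in 2 fits that leave out 1 library (pregnant 1 or pregnant 2), the values without each library running from 2.62 to 2.63. Pregnant minus non-pregnant was reversed with cells of at least 100 UMIs (-0.79), with edgeR (-0.17) and with DESeq2 (-0.13). The class difference of the postpartum change was reversed with a pseudocount of 10 (-0.30) and called at 2.86 with the 90% limit without pregnant 2. Cish postpartum minus pregnant was reversed without pregnant 1 (-0.40), and the values without each library ran from -0.40 to 1.71. The cause of these changes was not tested. Throughout, edgeR without pregnant 2 and the 90% limit without pregnant 2 were alternatives chosen after seeing the data.

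The number of genes called ranged widely: from 0 to 1741 for postpartum minus pregnant (3 as reported), 0 to 1573 for pregnant minus non-pregnant (4), 1 to 359 for postpartum minus non-pregnant (7), 10 to 121 against Gcg-led (16), 0 to 73 against Sst-led (28), 7 to 92 against Ppy-led (24) and 0 to 585 for the class difference (0). The highest counts of postpartum minus pregnant and of the class difference came without pregnant 1, which leaves pregnant 2 as the only pregnant library. With the replicate number as a replicate block, postpartum minus pregnant was 2.18 ± 0.68 (limma adjusted p = 0.469) and 1 gene was called. Nothing in the labels says that a number marks shared animals, and deviations of same-numbered libraries correlated at 0.0436 over 2194 genes. Pregnant 2, with 6 Prlr UMIs, limits every comparison with pregnancy.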
